A study of Mus musculus with 3 samples.

Results

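The Krüppel-like factor (KLF) genes were examined as a family: Klf4, whose product was one of the proteins precipitated, and Klf2, Klf3, Klf5, Klf6, Klf7, Klf9, Klf10, Klf11 and Klf13. A peak was counted for a KLF gene when the nearest end of any protein-coding gene (GRCm38) was an end of that KLF gene, or when its centre lay within 1 kb of such an end. By this rule 155 of 57936 deposited HDAC3 peaks and 163 of 47155 deposited KLF4 peaks belonged to the 10 genes, of 21887 protein-coding genes in all. All of them were found through the nearest end, and the 1 kb clause added none. The peaks came from chromatin of wild-type mouse skin, the dorsal epidermis taken at E18.5, shortly before birth. There were 3 libraries: chromatin precipitated for HDAC3 (Abcam ab7030), chromatin precipitated for KLF4 (R&D AF3158), and an input without antibody. HDAC3 is the catalytic subunit of the NCoR/SMRT corepressor complexes.

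KLF proteins are transcription factors that bind GC-rich and CACCC-type sequences through a conserved set of zinc fingers at their carboxy terminus, and they differ in the part before the fingers. Klf4, Klf2, Klf5, Klf6 and Klf7 are usually grouped as activating members, Klf3 binds the corepressor CtBP, and Klf9, Klf10, Klf11 and Klf13 carry a SIN3-binding motif. In the skin KLF4 is needed for the outer barrier and acts in the differentiated layers, whereas KLF5 is known from proliferating epithelial cells.

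Each antibody had 1 library, so nothing was tested between libraries and there is no replicate spread. Depth was 56787485 tags for HDAC3 and 61432711 tags for KLF4. Peak height is given as the authors' score, a position-adjusted tag number that ranks peaks within a list and is not compared between lists. Folds over input carry exact 95% intervals from the tag and input numbers, and shares carry exact Clopper-Pearson 95% intervals. Both cover counting error only, since copies made by PCR are not independent molecules. Of 8 keratinocyte marker genes, 7 had at least 1 nearest peak of each list, but so had all 9 marker genes of fibroblasts, immune cells, melanocytes and endothelium. Over all protein-coding genes 64.8% had one for HDAC3 and 59.2% for KLF4. A nearest peak alone therefore does not check the tissue label, and no expression was measured. Within 1 kb of an end, KLF4 peaks stood at 5 of 8 keratinocyte, 1 of 3 fibroblast and 1 of 2 melanocyte markers. HDAC3 peaks stood at 3 of 8, 1 of 3 and 2 of 2. Immune and endothelial markers had 0 of 2 each in both lists. Among protein-coding genes 23.1% had such a KLF4 peak and 18.9% such an HDAC3 peak. These small counts were not tested.

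RefSeq promoter windows (GRCm38.p6) were at hand for 8 of the 10 genes, Klf5 and Klf10 having no entry. No peak of either list overlapped the 250 bases before the start in these 8. Over all 32851 annotated promoter windows 4.94% carried an HDAC3 peak and 7.56% a KLF4 peak, so that 0 of 8 is near the background. The windows of Klf4, Klf9 and Klf11 are shown because peaks flanked them within 1 kb of the start. That of Klf13 is shown because it held the most matches to GGGNGTGG. The windows were searched on both strands for GGGNGTGG (1 form of the KLF and SP type box), TGANTCA (AP-1), AACCGGTT (grainyhead-like) and GCCNNNGGC (AP-2). Forms of the KLF and SP type box without GTGG were not searched, so a window without a match may still hold such a box. All matches are in capitals, and the last base of each line is the base before the start.
Klf4 (chr4:55532476-55532725, minus strand): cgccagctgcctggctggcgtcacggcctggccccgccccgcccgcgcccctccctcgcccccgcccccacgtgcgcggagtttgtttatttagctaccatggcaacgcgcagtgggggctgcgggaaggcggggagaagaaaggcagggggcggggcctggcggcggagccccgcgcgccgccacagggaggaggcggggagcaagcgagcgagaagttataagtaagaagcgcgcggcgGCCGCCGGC
Klf9 (chr19:23140976-23141225, plus strand): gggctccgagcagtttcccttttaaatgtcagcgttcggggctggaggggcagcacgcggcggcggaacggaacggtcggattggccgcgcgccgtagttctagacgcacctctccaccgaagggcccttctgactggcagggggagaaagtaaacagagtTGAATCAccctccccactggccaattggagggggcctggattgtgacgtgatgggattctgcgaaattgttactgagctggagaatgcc
Klf11 (chr12:24651121-24651370, plus strand): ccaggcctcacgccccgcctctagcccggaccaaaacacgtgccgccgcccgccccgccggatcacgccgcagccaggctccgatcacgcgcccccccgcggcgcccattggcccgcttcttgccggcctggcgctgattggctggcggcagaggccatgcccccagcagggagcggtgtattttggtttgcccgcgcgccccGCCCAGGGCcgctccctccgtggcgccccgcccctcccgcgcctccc
Klf13 (chr7:63938916-63939165, minus strand): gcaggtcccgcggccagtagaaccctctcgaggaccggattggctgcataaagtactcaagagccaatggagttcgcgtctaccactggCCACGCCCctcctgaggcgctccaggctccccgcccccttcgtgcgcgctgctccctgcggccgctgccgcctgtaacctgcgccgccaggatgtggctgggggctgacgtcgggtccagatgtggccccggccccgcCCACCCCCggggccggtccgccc
The capitals mark an AP-2 match in Klf4 and in Klf11, an AP-1 match in Klf9, and KLF and SP type boxes in Klf13 whose first bases lay 161 and 23 bases before the start. The searched form of that box was present in 2 of the 8 KLF windows, those of Klf13 and Klf7, and in 15.9% of all promoter windows. AP-1 matches stood in 6.75% of all windows, AP-2 matches in 13.7% and grainyhead-like matches in 0.116%. The 8 KLF windows were between 59.2% and 78.4% G and C, against a median of 52.4% over all windows. A match is a description of letters, and none of these was covered by a peak.

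Peaks of both factors were spread unevenly over the family. Klf4 led both lists with 53 HDAC3 peaks and 56 KLF4 peaks, then came Klf6 with 42 and 37, and Klf5 with 19 and 25. Klf7 had 16 and 6, Klf10 5 and 13, Klf13 7 and 9, and Klf9 7 and 7. Few peaks were nearest to Klf3 (2 and 5), Klf2 (3 and 2) or Klf11 (1 and 3). All 10 genes thus had at least 1 nearest peak of each list, which was true of 49.8% of protein-coding genes, with 64.8% having an HDAC3 peak and 59.2% a KLF4 peak. By the number of nearest peaks Klf4 stood 9th of 21887 genes for HDAC3 and 3rd for KLF4, and Klf6 25th and 19th. The median protein-coding gene had 1 peak of either list.

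**Figure D1:**
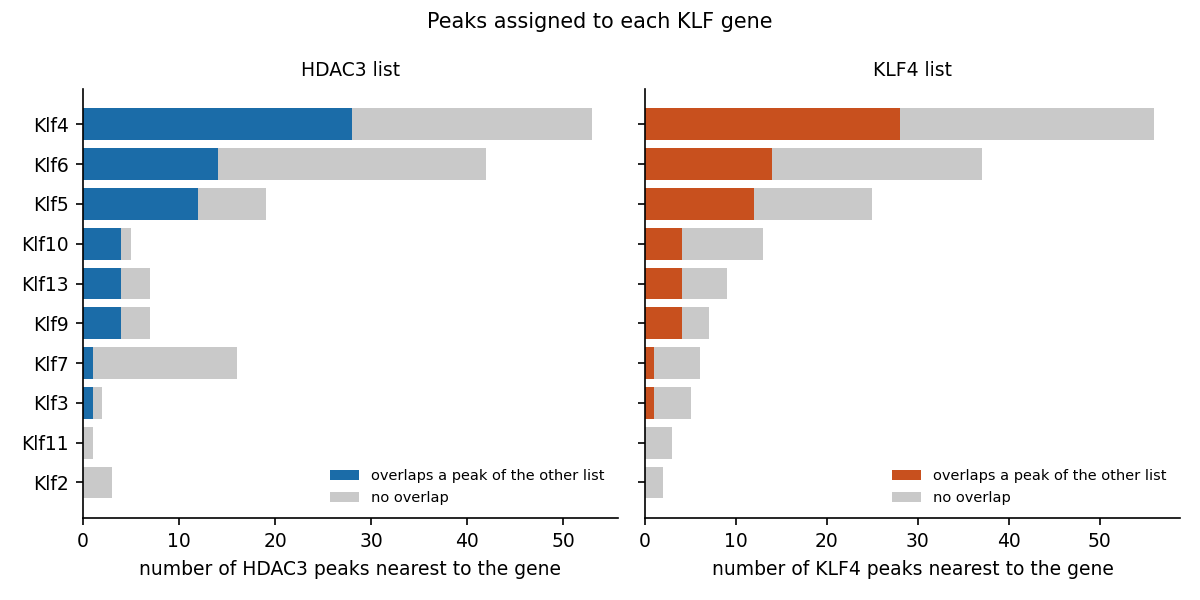
Number of peaks nearest to each KLF gene (horizontal axis) in the HDAC3 list (left) and the KLF4 list (right). Coloured parts are peaks that overlap a peak of the other list, and grey parts are the rest. Klf4 has 53 and 56 peaks, 28 of them shared in each list, while Klf7 has 16 HDAC3 peaks with 1 shared.

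A gene that lies far from its neighbours collects more peaks under this rule. The territory of a gene, meaning the stretch of chromosome nearer to its ends than to those of any other protein-coding gene, was 676.6 kb for Klf4, 973.9 kb for Klf6, 428.2 kb for Klf7 and 313.0 kb for Klf5, against a median of 46.3 kb. It was 29.9 kb for Klf11 and 43.1 kb for Klf2. Over the 2960 kb of all 10 territories there were 5.24 HDAC3 peaks per 100 kb, against 2.15 over the territories of all protein-coding genes. For KLF4 the density was 5.51 per 100 kb, against 1.75. These are 2.43 and 3.14 times the overall densities. Without Klf4 the other 9 genes had 4.47 and 4.69 peaks per 100 kb.

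Within the family the densities ranged from 3.27 (Klf3) to 7.83 (Klf4) HDAC3 peaks per 100 kb, and from 1.40 (Klf7) to 9.63 (Klf10) KLF4 peaks per 100 kb, with only Klf11 higher. Among the 6033 genes with a territory of at least 100 kb, Klf4 stood 110th by HDAC3 density and 180th by KLF4 density, and Klf10 81st by KLF4 density. Klf6, 25th and 19th by number of peaks, stood only 1196th and 1077th by density, with 4.31 HDAC3 and 3.80 KLF4 peaks per 100 kb. Klf7 stood 1563rd and 2584th. The densities of Klf11 rest on 1 and 3 peaks.

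**Figure D2:**
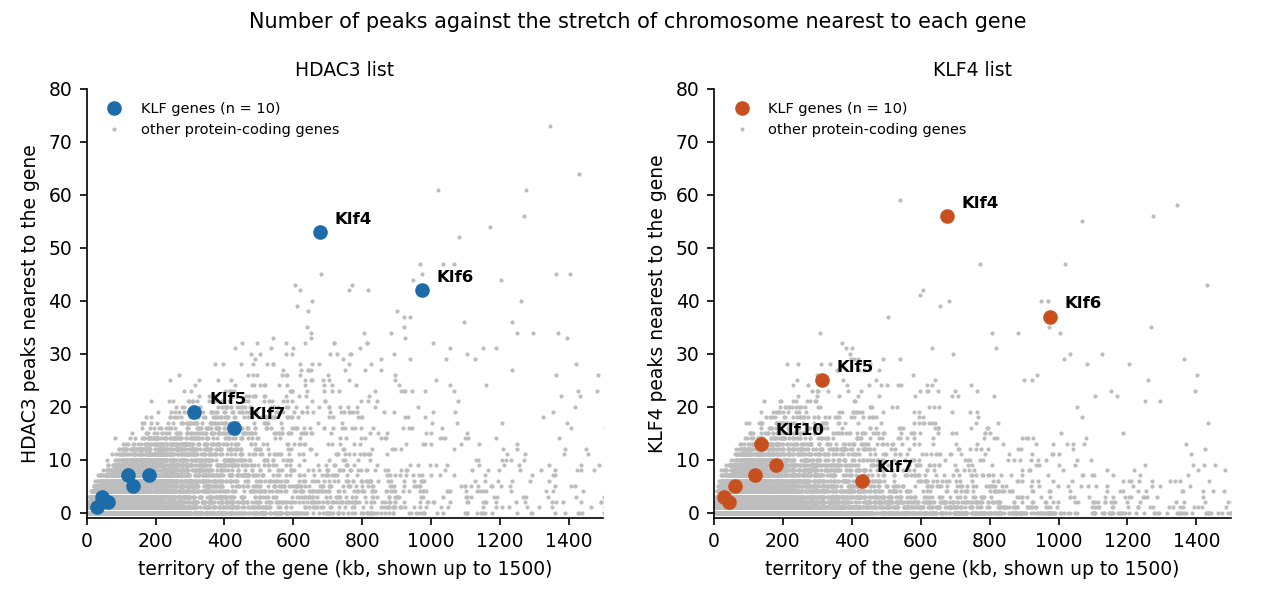
Number of nearest HDAC3 peaks (left) and KLF4 peaks (right) of protein-coding genes, against the territory of the gene in kb; genes with territories beyond the axis are not drawn. Large coloured points are the 10 KLF genes and small grey points the other genes. Klf4 (53 and 56 peaks over 676.6 kb) lies near the upper edge of the cloud, and Klf7 (16 and 6 over 428.2 kb) inside it.

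The count depended on which genes may claim a peak. When noncoding genes were allowed to be nearest, 21 HDAC3 and 22 KLF4 peaks remained with the family, and Klf4 kept 4 and 3. Its territory then shrank to 34.4 kb. The density over the shrunken territories was 6.07 HDAC3 and 6.36 KLF4 peaks per 100 kb. Nearness does not show that a peak acts on a gene, and the word assigned is used here only for nearness.

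Klf4 itself had no KLF4 peak within 1 kb of its ends. Only 23.1% of protein-coding genes had one, so this absence is near the background. The gene lies on chromosome 4, 55527137 to 55532475, on the minus strand. Its nearest KLF4 peak, 2304 bp upstream of the start at 55534687 to 55534871, scored 119 and was 18.1-fold over input (6.06 to 89.2). An HDAC3 peak of score 58 stood closer, 981 bp upstream at 55533364 to 55533548, and was 9.30-fold over input (3.49 to 35.0). The centres of these peaks were 1323 bp apart, so they did not overlap. No peak of either list was centred inside the gene body.

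The strongest sites close to Klf4 lay behind the gene. At 5419 bp past its end, chromosome 4, 55521626 to 55521810, an HDAC3 peak scored 78 (13.5-fold over input, 5.10 to 50.2). The KLF4 peak there, at 55521656 to 55521840, scored 282 (34.7-fold, 13.4 to 128), and the centres were 30 bp apart. A further HDAC3 peak 4739 bp past the end scored 61 and overlapped no KLF4 peak. Farther on, 30545 bp past the end, stood the highest HDAC3 peak of the whole family: 55496500 to 55496684, score 127, 282nd of the list by score and 10.2-fold over input (5.04 to 23.9). Its KLF4 partner, 6 bp away, scored 267 (15.7-fold, 7.84 to 36.6). Another shared site, 46039 bp past the end, scored 93 for HDAC3 and 155 for KLF4.

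Most peaks of the Klf4 territory were upstream of the start, in the gap of 1207530 bp between Klf4 and Actl7b, the next protein-coding gene on that side. There were 46 of 53 HDAC3 peaks and 49 of 56 KLF4 peaks upstream, where most of the territory lies. In 100 kb steps from the start outward, HDAC3 peaks numbered 4, 7, 7, 6, 12 and 10 and KLF4 peaks 6, 11, 6, 8, 11 and 7. Peaks were thus present in every step of the upstream gap counted to Klf4.

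The highest KLF4 peak of the family stood in that gap, 404222 bp upstream of Klf4 at 55936605 to 55936789. It scored 515, was 118th of the KLF4 list and 53.8-fold over input (22.9 to 166). An HDAC3 peak 21 bp from it scored 52, just under the bound of 53 for the highest decile of the HDAC3 list. Nearer to the gene, 396903 bp upstream, HDAC3 had its second highest peak of the family, with a score of 112 (11.8-fold, 5.31 to 32.8), and the KLF4 peak 66 bp away scored 248. The heights of neighbouring shared sites therefore did not follow the same order in both lists.

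A further upstream group lay 162764 to 193817 bp before the start. KLF4 peaks there scored 288 at 162764 bp, with no HDAC3 peak nearer than 4215 bp, 226 at 166862 bp and 175 at 193811 bp. The HDAC3 peak beside the last of these, 6 bp away, scored 66. In all, 13 of the 53 HDAC3 peaks and 8 of the 56 KLF4 peaks of the Klf4 territory were in the highest decile of their list. That decile holds 10% of the peaks of a list, and the KLF4 count is near this share. A further peak of each list tied with the bound, at 53 and 173, and fell outside the decile by its rank. Of the other high peaks, HDAC3 scored 80 at 427787 bp, 65 at 495019 bp and 62 at 519681 bp upstream, each with a KLF4 peak of 166, 67 and 71. The pair of HDAC3 peaks at 589399 and 589926 bp upstream scored 60 and 59, and the second overlapped a KLF4 peak of score 64. A last one, 48986 bp past the end of the gene, scored 54 and was unshared. The remaining high KLF4 peak, 318766 bp upstream, scored 180 and overlapped an HDAC3 peak of score 32.

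The border of the territory did not mark an end of the peaks. It falls 603765 bp upstream, midway to Actl7b. In the last 100 kb before it there were 9 HDAC3 and 7 KLF4 peaks, and in the 100 kb beyond it, counted to Actl7b, 10 of each. The last HDAC3 peak inside, at 594556 bp, scored 16 and the first outside, at 616857 bp, scored 48. For KLF4 the last inside, at 589877 bp, scored 64 and the first outside, at 616872 bp, scored 71.

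**Figure D3:**
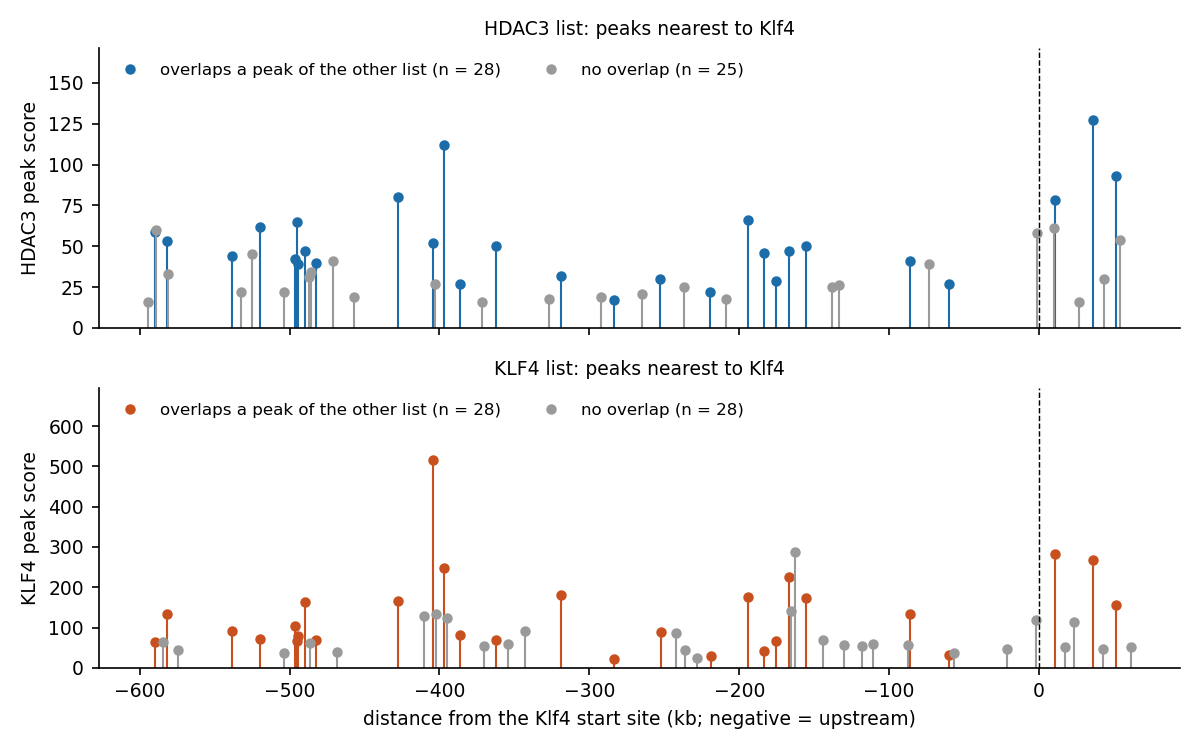
Score of every HDAC3 peak (upper) and KLF4 peak (lower) nearest to Klf4, against the distance of its centre from the Klf4 start site in kb, with upstream negative and the start marked by a dashed line. Coloured points overlap a peak of the other list (28 in each) and grey points do not. The highest HDAC3 peak (127) lies past the gene and the highest KLF4 peak (515) 404222 bp upstream.

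The other activating members differed from one another. Klf6, an early response gene of tissue injury (chromosome 13, 5861489 to 5870393), had its highest HDAC3 peak 19862 bp upstream at 5841535 to 5841719, of score 106 and 10.6-fold over input (5.0 to 26.7), and KLF4 scored 155 at a centre 3 bp from it. Inside the gene, 2922 bp from its start, HDAC3 scored 72 (21.0-fold, 5.67 to 177) and KLF4 scored 96 at a centre 65 bp away. Its highest KLF4 peaks, of 258 at 91700 bp upstream and 233 at 16664 bp downstream, overlapped HDAC3 peaks of 69 and 47. Shared peaks made up 14 of the 42 HDAC3 peaks of Klf6, or 33.3% (19.6 to 49.5), against 25.8% over the list. They made up 14 of its 37 KLF4 peaks, or 37.8% (22.5 to 55.2), against 31.7%. The list shares lie inside these intervals, so sharing at Klf6 is near the background. No peak of either list lay within 1 kb of the ends of Klf6. Of protein-coding genes, 18.9% had one for HDAC3 and 23.1% for KLF4, so this absence is also near the background.

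Klf5 (chromosome 14, 99298691 to 99313412) had a shared pair at its lower-coordinate end. HDAC3, at 99298282 to 99298466, scored 30 (7.18-fold over input, 2.30 to 36.1), and KLF4, at 99298277 to 99298461, scored 61 (6.79-fold, 2.51 to 25.7). These centres were 5 bp apart and 317 and 322 bp outside the gene. The whole-list medians were 22 for HDAC3, below this peak, and 65 for KLF4, above it. The high peaks of Klf5 lay beyond the other end: HDAC3 scored 78 at 208512 bp, 73 at 78526 bp and 73 at 127425 bp, and KLF4 scored 202 at 90154 bp and 156 at 33598 bp. The 3 HDAC3 peaks named overlapped KLF4 peaks, of 148, 103 and 114, while the 2 KLF4 peaks named overlapped no HDAC3 peak.

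Klf7, best known from neurons, had 16 HDAC3 peaks, 9 of them inside its gene body of 92898 bp (chromosome 1, 64029448 to 64122345). Of these 16 only 1 overlapped a KLF4 peak, which is 6.25% (0.158 to 30.2), against 52.8% (38.6 to 66.7) at Klf4. Over all HDAC3 peaks the share was 25.8%, inside the interval of Klf7. The shared one was also the highest, with a score of 44, at 64118910 to 64119094. It lay 3343 bp from the higher-coordinate end of the gene and 2387 bp from the annotated start. The other 15 scored between 17 and 23, close to the tag threshold of 16 of the HDAC3 list. In the score deciles of these 15, between 2.61% and 12.1% of all HDAC3 peaks were shared, so few shared peaks at Klf7 is near the background. KLF4 had its highest Klf7 peak, of score 145, 76132 bp upstream, with an HDAC3 peak of score 19 centred 510 bp away.

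Klf2, a gene of endothelial cells and lymphocytes (chromosome 8, 72319062 to 72321654), had peaks only upstream and none of them shared. With 3 HDAC3 and 2 KLF4 peaks the intervals of these shares reach 70.8% and 84.2%. The list shares of 25.8% and 31.7% lie inside them, so the lack of sharing at Klf2 is near the background. KLF4 scored 285 at 72306977 to 72307161, 11993 bp from the gene and 20.8-fold over input (9.98 to 52.1), and 20 at 22742 bp. HDAC3 scored 45 at 8000 bp (6.17-fold, 2.50 to 19.6), 26 at 15204 bp and 19 at 15835 bp. The high KLF4 peak was 3211 bp from the nearest HDAC3 peak.

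Klf3, whose protein recruits CtBP, had the second highest KLF4 peak of the family. It lay 31945 bp downstream of the gene (chromosome 5, 64803521 to 64832901), at 64864754 to 64864938, scored 452 and was 24.6-fold over input (13.3 to 51.6). The HDAC3 peak 9 bp away scored 85 (5.97-fold, 3.14 to 12.8). Several peaks near the start of Klf3 were not counted to it, because an end of the protein-coding gene Gm38457 was nearer. The highest was a shared site inside Klf3, 8751 bp from the start at 64812180 to 64812364, where KLF4 scored 460 and HDAC3 92. A KLF4 peak of score 345 stood inside Klf3 as well, 5879 bp from the start, and an HDAC3 peak of score 64 at 8290 bp. Within 5 kb of the start, KLF4 scored 129 at 2860 bp inside and 66 and 72 at 1920 and 3892 bp upstream. The assigned counts of 2 and 5 therefore leave out peaks that lie within Klf3.

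Of the 4 genes of the SIN3-binding group, 3 had an HDAC3 and a KLF4 peak within 1 kb of an end, as had 10.3% of protein-coding genes. HDAC3 had 20 peaks in the group, 12 of them shared (25.8% over the list), and KLF4 had 32, 12 of them shared (31.7% over the list). In the activating group 55 of 133 HDAC3 peaks and 55 of 126 KLF4 peaks were shared, so sharing was not particular to the SIN3-binding genes. Klf11, which like Klf10 is induced by TGF-beta, had a KLF4 peak 645 bp inside the gene from its start at chromosome 12, 24651924 to 24652108, of score 153 and 14.6-fold over input (6.11 to 45.5). An HDAC3 peak of score 46 (7.83-fold, 2.90 to 29.5) was centred 197 bp farther in, at 24652121 to 24652305. At 197 bp between centres the windows missed each other, and they were counted as unshared. A higher KLF4 peak, of 226 and 54.1-fold over input (14.8 to 449), stood 7002 bp upstream of Klf11 without HDAC3.

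Klf9, a glucocorticoid-responsive gene (chromosome 19, 23141226 to 23168129), carried a shared pair before its start. HDAC3 scored 33 at 23140631 to 23140815, 503 bp upstream, with 48 tags over 1 input tag (23.5-fold, 4.02 to 948). KLF4 scored 61 at 23140670 to 23140854, 464 bp upstream (5.52-fold, 2.24 to 17.6). A second HDAC3 peak, of score 37, lay 940 bp inside the gene. The higher sites of Klf9 were farther upstream: a shared pair 5624 bp away scored 63 for HDAC3 and 161 for KLF4, and KLF4 alone scored 208 at 7013 bp.

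Klf10 (chromosome 15, 38291464 to 38300711) had 5 HDAC3 and 13 KLF4 peaks, not compared because the tag thresholds of the lists were 16 and 19. Beyond its higher-coordinate end, HDAC3 scored 31 at 556 bp (4.16-fold, 1.79 to 11.9) and KLF4 60 at 963 bp (5.25-fold, 2.12 to 16.7), with centres 407 bp apart. Much higher KLF4 peaks followed on that side: 387 at 23364 bp (38323983 to 38324167, 48.2-fold, 18.7 to 178), 262 at 23882 bp and 298 at 90991 bp. HDAC3 overlapped the last 2 of these with scores of 61 and 58, and had its highest Klf10 peak, of 77, at 84165 bp, where KLF4 scored 114.

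Klf13 (chromosome 7, 63886351 to 63938915) had no gene-end peak of either list, while 18.9% of protein-coding genes had one for HDAC3 and 23.1% for KLF4. None of its 7 HDAC3 and 9 KLF4 peaks was in the highest decile, which holds 10% of the peaks of a list. Both absences at Klf13 are near the background. Its highest KLF4 peak scored 105, 2315 bp inside the gene from its start at 63936508 to 63936692, and the HDAC3 peak 40 bp away scored 38. HDAC3 reached 51 at 73013 bp upstream, where KLF4 scored 89 at a centre 104 bp from it.

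Taking the gene ends together, 5 of the 10 genes had an HDAC3 peak within 1 kb of an end (Klf4, Klf5, Klf9, Klf10 and Klf11), against 18.9% of protein-coding genes. KLF4 had one at 4 (Klf5, Klf9, Klf10 and Klf11), against 23.1%, and these 4 carried both, against 10.3%. Scores ran from 30 to 58 for HDAC3 and from 60 to 153 for KLF4. The peaks just inside the limit were those of HDAC3 at Klf4 (981 bp) and KLF4 at Klf10 (963 bp), and just outside it was KLF4 at Klf3 (1493 bp, score 43). At 5 kb the counts were 8 genes for HDAC3 and 9 for KLF4, against 46.2% and 46.0% of protein-coding genes. When peaks had to be at least 8-fold over input, 2 KLF genes had an HDAC3 end peak, against 6.76% of protein-coding genes, and 1 a KLF4 end peak, against 11.0%, which is near that background.

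In distance the peaks of the family lay far out. Of the 155 HDAC3 peaks, 54.8% were over 100 kb from the nearest gene end, against 19.1% of all HDAC3 peaks, and of the 163 KLF4 peaks 48.5%, against 12.6%. The part of the long territories in this was not tested. At 1 kb or less there were 6 HDAC3 and 4 KLF4 peaks, or 3.87% and 2.45%, against 6.97% and 10.8% of the whole lists.

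Overlap between the factors was counted from both lists. The 68 HDAC3 peaks that overlapped KLF4 were 43.9% of the family's 155 (35.9 to 52.1), against 25.8% of all HDAC3 peaks. Seen from the KLF4 list the share was 41.7% of 163 (34.1 to 49.7), against 31.7%. The intervals lay above the whole-list shares, but peaks of 1 locus are not independent draws and both lists used 1 input. In the highest score decile of their list, which holds 10% of the peaks, were 27 HDAC3 peaks of the family, or 17.4% (11.8 to 24.3). For KLF4 they were 19, or 11.7% (7.17 to 17.6), near the background. Weighting the whole lists to the family's score deciles gave shares of 39.2% for HDAC3 and 34.6% for KLF4. Both lie inside the family's intervals. With centres at most 50 bp apart required, 28.4% of HDAC3 peaks were shared, against 18.0% over the list, and 27.0% of KLF4 peaks, against 22.1%. Among the 10000 highest peaks of each list the family was below the list, within its intervals: 40.8% (27.0 to 55.8) of its HDAC3 peaks were shared, against 49.1%, and 46.5% (31.2 to 62.3) of its KLF4 peaks, against 49.0%.

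Shared genes were 8 of 10, all except Klf2 and Klf11, against 33.0% of protein-coding genes with a nearest HDAC3 peak that overlapped KLF4. A peak of the highest HDAC3 decile was nearest to 6 of the 10 (15.4% of protein-coding genes) and one of the highest KLF4 decile to 8 (13.3%). Such counts by gene grow with the number of peaks a gene collects, and the part of peak number in them was not tested. Counted by peak, 17.4% of the family's HDAC3 peaks and 11.7% of its KLF4 peaks were in the highest decile, against 10%. The KLF4 share is near the background.

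**Figure D4:**
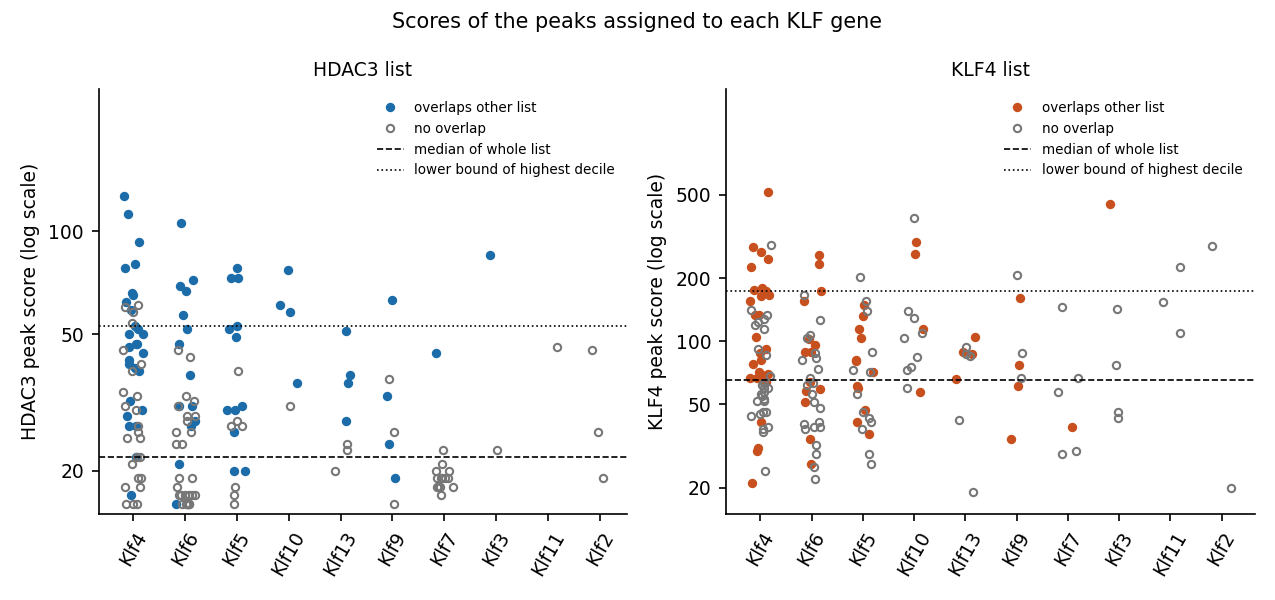
Score, on a log scale, of every peak assigned to each KLF gene in the HDAC3 list (left) and the KLF4 list (right), with genes ordered by their number of KLF4 peaks and points spread sideways for sight only. Filled points overlap a peak of the other list; the dashed line is the median of the whole list (22 and 65) and the dotted line the lower bound of its highest decile (53 and 173). The HDAC3 peaks of Klf7 lie between 17 and 23, apart from 1 shared peak at 44.

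The 68 overlapping pairs were tightly superposed, with a median of 32 bp between centres and quartiles of 12 and 65 bp, against a median of 31 bp over all 14962 pairs. In 15 pairs the centres were at most 10 bp apart. Shared HDAC3 peaks of the family had a median score of 46.5 and unshared ones 21, and shared KLF4 peaks had 88.5 and unshared ones 63. Over the whole lists these medians were 43 and 20 for HDAC3 and 93 and 56 for KLF4. Across the 68 pairs the scores had a Spearman correlation of 0.683, against 0.719 over all pairs. It is a description across sites that share the input and were selected by both callings.

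**Figure D5:**
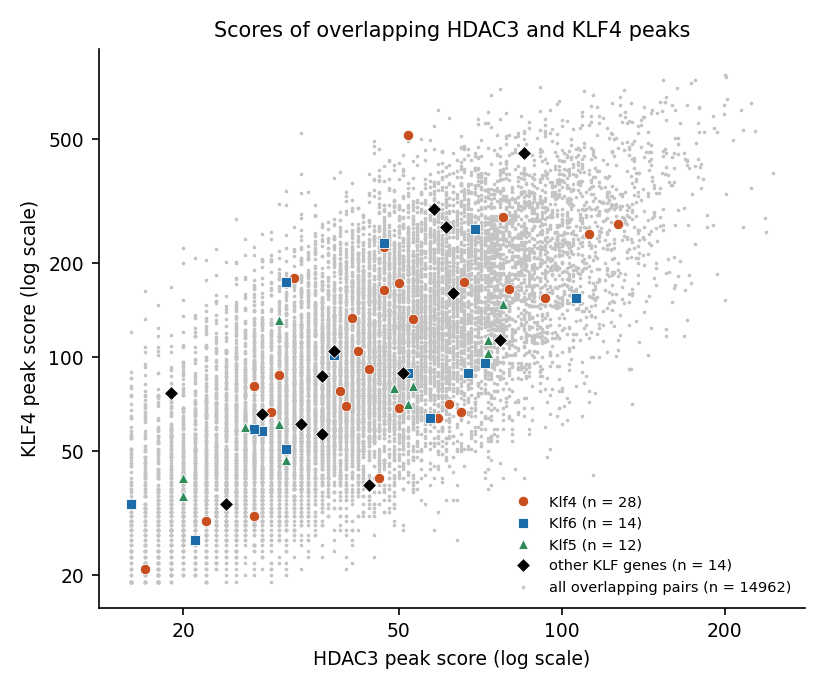
HDAC3 score against KLF4 score, both on log scales, for the 68 overlapping pairs at KLF genes (coloured by gene) and for all 14962 overlapping pairs (grey). The KLF pairs spread through the grey cloud, from HDAC3 scores of 16 to 127; the highest KLF4 score (515, Klf4) stands above an HDAC3 score of 52.

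Over all peaks of the family, the median HDAC3 score at the KLF genes was 28 (quartiles 19 and 46), against 22 (18 and 32) over the list, and the median KLF4 score 73 (47.5 and 125), against 65 (40 and 107). The median enrichment over input was 6.66-fold, against 6.85-fold, for HDAC3 and 9.05-fold, against 8.60-fold, for KLF4. Mean input was 3.17 tags at the HDAC3 peaks of the family, against 2.64 over the list, and 4.21 tags, against 3.93, for KLF4. The part of this input difference in the scores was not tested.

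The other KLF and SP genes were taken as a list of 16 (Klf1, Klf8, Klf12, Klf14, Klf15, Klf16, Klf17 and Sp1 to Sp9). Of these, 5 had an HDAC3 peak within 1 kb of an end, 3 a KLF4 peak and 2 both, against 18.9%, 23.1% and 10.3% of protein-coding genes. The KLF4 count and the count of both are near the background. The 2 were Sp1, a widely expressed activator, and Sp6, the epiprofin gene of ectodermal epithelia and teeth. Sp6 carried an HDAC3 peak of score 137, 24.1-fold over input, at chromosome 11, 97025042 to 97025226, higher than any HDAC3 peak of the 10 genes, and 19 bp from it a KLF4 peak of score 374 (44.6-fold). At Sp1 the shared pair before the start, 237 and 174 bp away, scored 33 for HDAC3 and 65 for KLF4, and KLF4 had a second end peak of 70. A total of 80 HDAC3 and 73 KLF4 peaks were counted to the 16 genes, and 6 genes had none of one list or of both. The genes with no peak of either list counted to them were Klf1, the erythroid member, and Sp9. Klf1 had a territory of only 9.1 kb, and 2 KLF4 peaks within 5 kb of its ends, the nearest at 3224 bp, were counted to nearer genes.

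The genes whose peaks were most like those of Klf4, by Euclidean distance over 4 values (number of nearest peaks and highest score in each list, as log2 of 1 plus the value), were Ofcc1, Rora, Gata3, Myc and Tle3, at distances from 0.470 to 0.678. Ofcc1 had 61 HDAC3 and 47 KLF4 peaks, with highest scores of 142 and 637, and Rora had 47 and 55, with 91 and 456. Gata3 had 61 and 56, Myc 64 and 43, and Tle3 33 and 59. Their territories were between 539.5 and 1430 kb long, against 676.6 kb for Klf4. The likeness is over 2 libraries only and contains the size of the territory.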

How the data were processed

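ChIP-seq peak lists for HDAC3 and KLF4 from E18.5 epidermis were analysed, 1 library per antibody. The submitters' processing notes name HOMER, STAR and bcl2fastq and the build GRCm38.p5, without tool versions. Per the file headers, peaks of 185 bp were called separately for each precipitation against the same input, at 4 times the tags of the input and of the surrounding 10000 bp, a p-value of 1e-04 over input and a false discovery rate of 0.001. In the deposited lists the normalised tag number is a signal scaled to 10000000 tags, and the score, the folds over input and surroundings (a ratio), the focus ratio (a fraction) and each p-value come from the authors' caller. The p-values and focus ratio were not used.

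Peaks were placed with Python 3.11.15 and pandas 2.3.3 on the GRCm38.p6 RefSeq gene table; patch releases keep the coordinates of chromosomes. Peaks on unplaced contigs were left out, leaving 57920 HDAC3 and 47140 KLF4 peaks for list-wide shares. Overlap meant centres at most 184 bp apart. Fold intervals used tags recovered from the normalised signal and exact binomial limits on tags against input tags. Score deciles were formed within a list by rank. Strand came from the RefSeq promoter table, so sides at Klf5 and Klf10 are given by coordinate. All members were named, with their highest peaks and gene-end peaks, and at Klf4 every peak of the highest decile. Members, lists and tests were chosen with earlier results of these data known. The placement steps were tested on simulated data. No genome sequence was used, so peaks were not searched for motifs.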

Additional observations from a re-analysis of the deposited data

How the results depend on the processing

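No paired analysis was possible because each antibody had 1 library and no result came from a test. The number of assigned peaks depended on every choice tried. HDAC3 peaks numbered 155 as reported, 63 at 8-fold over input or more, 49 among the 10000 highest peaks of each list, 21 when noncoding genes could be nearest, 48 within 50 kb of a KLF gene and 102 without Klf4. For KLF4 these numbers were 163, then 98, 43, 22, 56 and 107. Leaving out Klf4 was chosen after seeing the data. Densities fell to 2.13 HDAC3 and 3.31 KLF4 peaks per 100 kb at 8-fold, against 0.897 and 0.953 over all territories, and kept within 1.5 times of the reported values under the other settings. The overlap with centres at most 50 bp apart was 28.4% for HDAC3, against 18.0% over the list, and 27.0% for KLF4, against 22.1%. At 8-fold it was 36.5%, against 21.7%, for HDAC3 and 23.5%, against 20.4%, for KLF4. Among the 10000 highest peaks the family was below the list, with 40.8%, against 49.1%, for HDAC3 and 46.5%, against 49.0%, for KLF4; the cause was not tested. Genes with an HDAC3 end peak numbered 5 as reported, 1 within 500 bp, 8 within 5 kb, 2 at 8-fold, 2 among the 10000 highest peaks and 3 at annotated starts of the 8 genes that have one. For KLF4 these numbers were 4, then 2, 9, 1, 1 and 2. The shares of protein-coding genes under these 5 alternatives were 11.8%, 46.2%, 6.76%, 6.19% and 15.9% for HDAC3 and 15.8%, 46.0%, 11.0%, 5.36% and 21.3% for KLF4. The input limits single peaks, since most fold intervals span several-fold.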
